A study of Homo sapiens with 3 samples.

Results

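The 9 genes described here encode chains of the laminin on which epithelial cells rest, subunits of the integrins that hold cells to it and to other matrix proteins, and CD44, a receptor for hyaluronan. They are LAMA3, LAMB3, ITGA2, ITGA3, ITGA6, ITGB1, ITGB4, ITGB6 and CD44, and they were taken by name from the 19689 protein-coding genes of GENCODE 44. The choice was made with earlier results of these data known, so values set beside those of all genes are descriptive only. For each gene, every peak of 3 chromatin immunoprecipitation sequencing (ChIP-seq) libraries was collected that lay within 1 kb of a protein-coding transcription start site (TSS) of the gene, elsewhere in its gene record, or within 50 kb on either side. The cells were HuCCT1, a human cholangiocarcinoma cell line, and the labels name no treatment or genetic change. Chromatin was precipitated with an antibody against SBNO1 (Strawberry Notch 1, a nuclear protein), with an antibody against TAF4 (part of TFIID, the complex that binds core promoters) or with IgG, the background control. The study performed ChIP-seq to follow up the interaction of SBNO1 with TAF4. For each antibody there was 1 library, made from pooled biological replicates according to the methods of the study, so that replicate error could not be assessed, no difference was tested, and all intervals below cover counting error only.

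Laminins are trimers of an α, a β and a γ chain in the basement membrane. LAMA3 and LAMB3 are chains of the laminin typical of epithelia with strong anchorage such as skin. Integrins are pairs of an α and a β subunit. ITGA6 with ITGB4 is the laminin receptor of hemidesmosomes, which ties keratin filaments to the basement membrane, and ITGA3 with ITGB1 is a laminin receptor of focal contacts, where actin filaments end. ITGA2 with ITGB1 binds collagen, and ITGB6, paired with ITGAV, binds fibronectin and releases TGF-β from its latent form. CD44 binds hyaluronan and, within the cell, the ERM proteins that link membrane and actin.

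The SBNO1 list held 16147 peaks, the TAF4 list 12763 and the IgG list 1598. Each peak had a score, a whole number with a cap of 1000 whose scaling was not stated. The share of peaks at this cap was 34.6% for SBNO1, 43% for TAF4 and 39.4% for IgG, and within each list narrow peaks scored higher (Spearman's rho across peaks of -0.42, -0.31 and -0.42). Scores are therefore given beside the median of their own list, which was 869 for SBNO1, 935 for TAF4 and 858.5 for IgG, and each is read only within its own library. The number of reads behind a peak was unknown.

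At the promoters, here the region within 1 kb of any TSS, peaks of both proteins were found at the same 6 of the 9 genes: LAMA3, LAMB3, ITGA2, ITGA3, ITGB1 and CD44. ITGA6, ITGB4 and ITGB6 had neither. An SBNO1 promoter peak was present at 25.7% of all protein-coding genes, a TAF4 promoter peak at 31.9% and both at 22.6%, against 6 of 9 genes for each of these counts. These shares stand for 5057 genes with SBNO1 and 6280 with TAF4. Of the listed peaks, 4791 of 16147 for SBNO1 and 6042 of 12763 for TAF4 lay within 1 kb of a TSS. The study counted far fewer bound promoters for each protein and placed most peaks of both close to a TSS. The cause of this difference was not tested, and the peaks described here may not be those the study called bound. No IgG peak lay at a promoter of the 9 genes, against 1.41% of all genes. The 9 genes had 80 TSS, of which 34 (42.5%) lay within 1 kb of an SBNO1 peak and the same 34 within 1 kb of a TAF4 peak, compared with 22.6% and 28.8% of all 78567 TSS. ITGB1 with 15 and CD44 with 10 contributed most of these 34 sites, since their annotated TSS lie close together. The genes have more TSS than most, with a median of 6 against 3, which gives a peak more sites to fall near.

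Away from the promoters the 9 loci carried many peaks. In the 1.77 Mb of gene bodies and 50 kb flanks there were 56 SBNO1 peaks, 8 at promoters, 17 elsewhere in gene bodies and 31 in the flanks. TAF4 had 42 peaks, of which 8 lay at promoters, 14 in bodies and 20 in flanks. IgG had 2, both in the flanks of ITGA3. A gene body peak away from the TSS was found in 5 of 9 genes for SBNO1 and in 6 of 9 for TAF4, against 14.8% and 9.91% of all genes, and in 0 of 9 for IgG against 1.12%. With the flanks included, 8 of 9 genes had an SBNO1 peak (62.3% of all genes), 9 of 9 a TAF4 peak (61.7%) and 1 of 9 an IgG peak (6.76%).

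The windows of the 9 genes are large, since the median gene length was 93.5 kb against 27.3 kb for all genes. Per 100 kb of window, SBNO1 had 3.16 peaks in the 9 genes and 0.976 over the windows of all genes, and TAF4 had 2.37 and 0.909. For IgG the density was 0.113 and 0.0528. Counting only peaks over 1 kb from every protein-coding TSS, the densities were 2.54 against 0.487 for SBNO1 and 1.58 against 0.297 for TAF4. The median number of peaks per window was 6 in the 9 genes and 1 in all genes for SBNO1, and 5 and 1 for TAF4. CD44 and ITGA3 had most SBNO1 peaks with 10 each, followed by LAMB3 and ITGB4 with 8, ITGA2 with 6, ITGB1 and ITGB6 with 5 and LAMA3 with 4, while ITGA6 had none. Of all protein-coding genes, 241 had at least the 10 SBNO1 peaks of CD44 and ITGA3, and 98.8% had fewer.

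**Figure D1:**
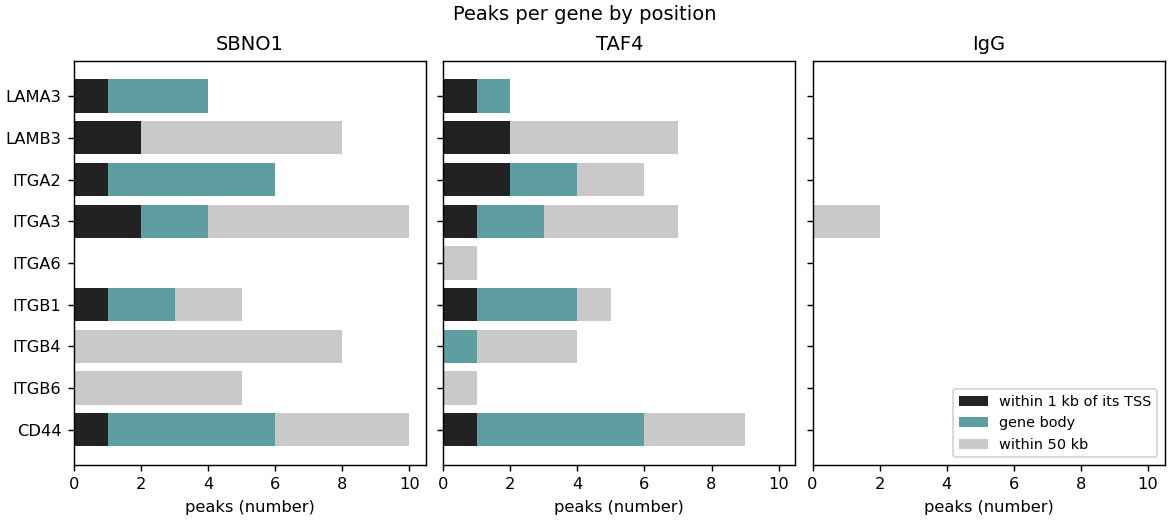
Number of peaks per gene (x axis) for SBNO1, TAF4 and IgG, divided into peaks within 1 kb of a TSS of the gene (black), elsewhere in the gene body (green) and within 50 kb on either side (grey). CD44 and ITGA3 each reach 10 SBNO1 peaks, ITGA6 has no SBNO1 peak and 1 TAF4 peak, and IgG has 2 peaks, both at ITGA3.

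**Figure D2:**
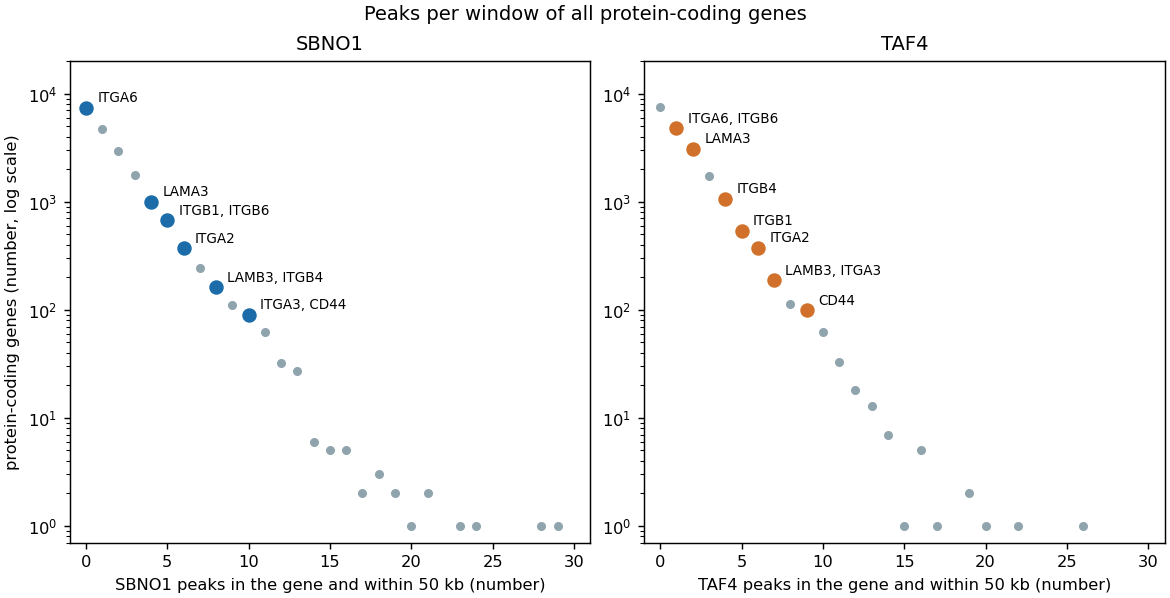
Number of protein-coding genes (y axis, log scale) by the number of SBNO1 (left) or TAF4 (right) peaks in the gene and within 50 kb (x axis). Coloured points mark the bins that hold the named genes, which reach 10 peaks for SBNO1 and 9 for TAF4, while the median of all genes is 1.

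**Figure D3:**
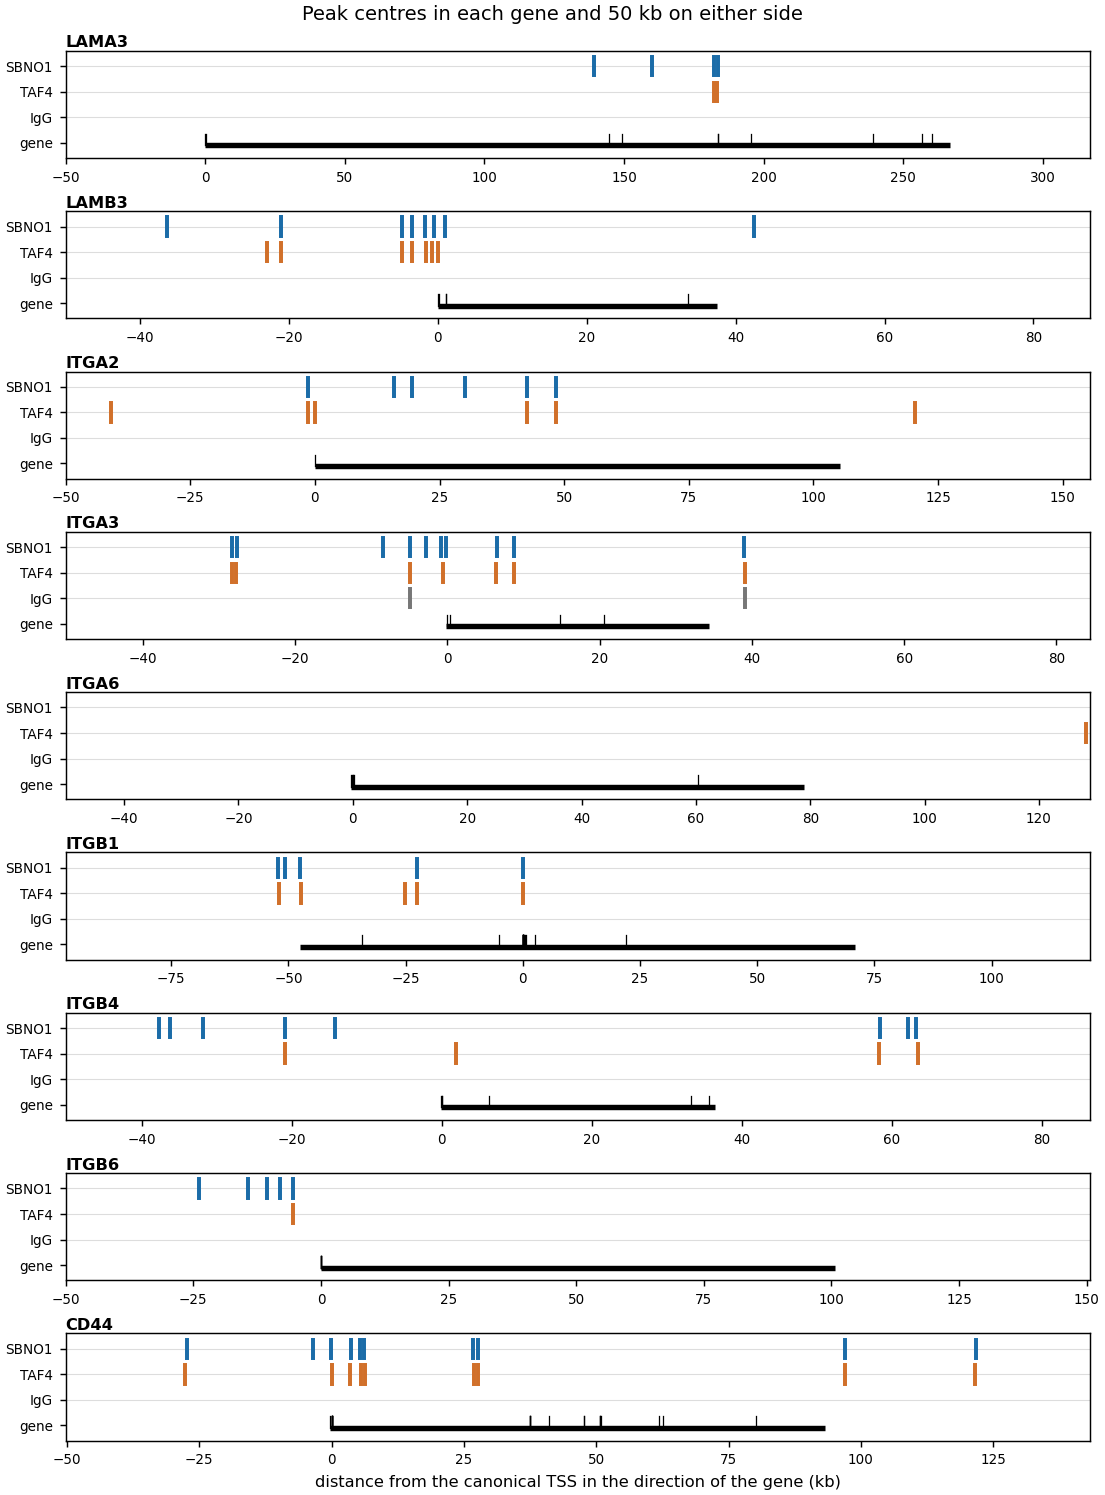
Centres of SBNO1 (blue), TAF4 (orange) and IgG (grey) peaks along each gene and 50 kb on either side, by distance from the canonical TSS in the direction of transcription (kb, 1 scale per gene). The black bar is the gene record and its ticks are the protein-coding TSS. Peaks of ITGB6 are all upstream of the gene, those of LAMA3 all within it, and ITGA6 is empty but for 1 TAF4 peak at the edge of its window.

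LAMA3, the α chain (ENSG00000053747.17, plus strand, chr18:23689453-23956222 on GRCh38), had its promoter peaks at an internal start. Its canonical TSS, from which the long transcript begins, was 102333 bp from the nearest SBNO1 peak and 102361 bp from the nearest TAF4 peak. Both proteins instead covered a pair of neighbouring TSS of shorter transcripts at 23873020 and 23873045, within intron 38 of the canonical transcript. The SBNO1 peak spanned chr18:23872652-23873347 (696 bp) with a score of 778, below the median of its list, and the TAF4 peak chr18:23872632-23873164 (533 bp) had the score of 1000. The other 8 TSS of the gene had no peak within 1 kb. The bases of this internal promoter are shown because they hold 3 copies of the AP-1 consensus (TGACTCA or, on the other strand, TGAGTCA), the site bound by dimers of JUN and FOS proteins, all inside both peaks and here in capitals.
LAMA3 internal promoter (GRCh38), chr18:23872760-23873059, plus strand: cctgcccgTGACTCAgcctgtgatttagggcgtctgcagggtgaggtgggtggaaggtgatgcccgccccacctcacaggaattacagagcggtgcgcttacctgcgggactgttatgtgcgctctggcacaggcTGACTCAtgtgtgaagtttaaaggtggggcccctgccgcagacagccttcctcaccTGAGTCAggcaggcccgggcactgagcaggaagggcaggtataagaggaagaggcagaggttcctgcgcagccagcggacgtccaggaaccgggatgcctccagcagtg
The RefSeq promoter window of the same length, which begins 10 bases later, holds 2 of the 3 copies. At least 1 copy was present in 4.95% of 35116 RefSeq promoters. Of the other peaks, 1 pair lay 1178 bp (SBNO1, chr18:23871378-23871842, score 838) and 1227 bp (TAF4, chr18:23871375-23871793, score 736) from this start, in coding exon 38. SBNO1 without TAF4 was found in intron 23 at chr18:23828587-23828735, with the score of 1000, a width of 149 bp and an AP-1 consensus 7 bp from the centre, and in intron 32 with a score of 715.

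LAMB3, the β chain (ENSG00000196878.15, minus strand, chr1:209614870-209652425), had the densest group of SBNO1 peaks, together with ITGA3, and the densest group of TAF4 peaks among the 9 genes. A wide SBNO1 peak of 1732 bp at chr1:209652060-209653791 (score 677) covered the canonical TSS at 209652425 and reached upstream of it. Both TAF4 promoter peaks, chr1:209651965-209652820 and chr1:209652961-209653429, overlapped it, by 761 and 469 bp, and both had the score of 1000. The other SBNO1 promoter peak, chr1:209651187-209651683 (score 499), covered a pair of further TSS at 209651394 and 209651334. TAF4 had no peak over these starts, its nearest edge being 571 and 631 bp away. An AP-1 consensus lay 3 bp from the centre of this SBNO1 peak.

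Upstream of LAMB3 both proteins continued side by side. In all, 5 SBNO1 peaks lay within 6288 bp and 5 TAF4 peaks within 5522 bp, from the promoter outwards. A stretch of 10 kb with as many SBNO1 peaks occurred in the windows of 64 genes (0.325%), and with as many TAF4 peaks in 70 (0.356%). The highest SBNO1 score away from the promoter was the 1000 of chr1:209657074-209657474, which a TAF4 peak with a score of 979 overlapped over its full width. Between this peak and the gene, SBNO1 at chr1:209655480-209656272 (score 867) and TAF4 at chr1:209655505-209656180 (score 1000) shared 676 bp. The bases around the AP-1 consensus of this shared element, 54 bp from the SBNO1 centre, were as follows, with the consensus in capitals.
LAMB3 upstream element (GRCh38), chr1:209655867-209655993, minus strand: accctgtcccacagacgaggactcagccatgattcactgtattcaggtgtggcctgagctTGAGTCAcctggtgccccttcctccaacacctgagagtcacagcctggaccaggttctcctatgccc
Farther out, both proteins had a peak 20664 (SBNO1, score 429) and 20826 bp (TAF4, score 784) upstream, again with an AP-1 consensus, and SBNO1 alone had peaks within HSD11B1 (696) and CAMK1G (573). A TAF4 peak (score 697) in this window lay at the promoter of the neighbouring gene G0S2.

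ITGA2, the α subunit of a collagen receptor (ENSG00000164171.11, plus strand, chr5:52989340-53094779), has 1 annotated TSS, and there the proteins differed. TAF4 covered it at chr5:52989160-52989566 with the score of 1000, and SBNO1 did not. The SBNO1 promoter peak, chr5:52987665-52988411 (score 1000), ended 941 bp upstream of the TSS and lay wholly inside a further TAF4 peak, chr5:52987549-52988452 (score 922), with 747 bp in common. ITGA2 thus counted as an SBNO1 promoter only by the edge of this peak and dropped out when distance was measured from the peak centre, leaving 5 of 9 genes. The RefSeq promoter of ITGA2 (build GRCh38.p14, 250 bases before the start and 50 after) is shown with its 4 copies of the GC box GGGCGG (on the other strand CCGCCC), the core of sites for SP and KLF proteins, in capitals.
ITGA2 promoter, TAF4 peak only (GRCh38.p14), chr5:52989102-52989401, plus strand: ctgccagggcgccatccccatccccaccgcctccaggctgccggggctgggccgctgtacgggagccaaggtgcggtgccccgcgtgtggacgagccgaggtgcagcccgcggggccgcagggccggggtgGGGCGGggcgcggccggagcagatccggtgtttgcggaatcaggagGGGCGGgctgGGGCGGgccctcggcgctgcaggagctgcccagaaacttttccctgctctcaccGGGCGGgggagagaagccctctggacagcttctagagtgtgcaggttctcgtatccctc
The GC box was present in 45% of all RefSeq promoters. In the first introns of ITGA2 there were 5 more SBNO1 peaks, 15622 to 48107 bp from the TSS, with scores from 600 to 1000. The nearer 3, in intron 1, had no TAF4 peak. Of these, chr5:53008465-53009029 and chr5:53019238-53019613 held an AP-1 consensus, 160 and 97 bp from the centre. The farther 2, in intron 2, had a TAF4 peak each, with TAF4 scores of 696 and 620. Both of these had an SBNO1 score of 1000 and likewise held an AP-1 consensus, which lay 101 bp from the centre in chr5:53037459-53037901. In the one that is wider, chr5:53031724-53032193, the consensus lay 46 bp from the centre and is given here in capitals.
ITGA2 intron 2 element (GRCh38), chr5:53031941-53032067, plus strand: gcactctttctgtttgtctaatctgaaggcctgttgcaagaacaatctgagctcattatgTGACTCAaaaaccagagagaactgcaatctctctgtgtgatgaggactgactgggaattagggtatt
Further TAF4 peaks without SBNO1 lay within ITGA1 (score 533) and at the promoter of MOCS2 (score 847).

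ITGA3, the α subunit of a laminin receptor (ENSG00000005884.18, plus strand, chr17:50055968-50090481), was covered at its canonical TSS (50056110) by both proteins. SBNO1 had peaks at chr17:50055656-50056151 (score 1000) and chr17:50055091-50055507 (score 821), and a single TAF4 peak of 1152 bp at chr17:50055000-50056151 (score 1000) spanned both. The SBNO1 and TAF4 peaks over the TSS ended at the same base. Together with 3 peaks farther upstream, 5 SBNO1 peaks lay within 8562 bp, a density again reached in the windows of 64 genes. Farther upstream, SBNO1 at chr17:50028200-50028884 and TAF4 at chr17:50028200-50028623 both had the score of 1000 and shared 424 bp. Beside this pair lay another, SBNO1 at chr17:50027615-50028082 (score 867) and TAF4 at chr17:50027623-50027952 (score 637). Inside the gene, a pair of peaks lay in intron 1 (SBNO1 858, TAF4 661) and a pair in intron 3, where SBNO1 at chr17:50064742-50065005 had the score of 1000 and TAF4 of 838.

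Both IgG peaks of the 9 loci were in the flanks of ITGA3, and each overlapped a peak of both proteins. The first, chr17:50051057-50051413 (score 946), was 4697 bp upstream of the TSS, and SBNO1 (score 728) and TAF4 (score 842) shared 357 and 353 bp with it. The second, chr17:50095064-50095345 (score 754), lay at the promoter of PDK2, where SBNO1 scored 381 and TAF4 1000. Without the peaks that IgG overlapped, ITGA3 would have 8 SBNO1 and 5 TAF4 peaks, and its promoter peaks would not change. Over the 9 loci IgG overlapped 2 of 56 SBNO1 peaks (3.57%, 95% Clopper-Pearson interval 0.435% to 12.3%) and 2 of 42 TAF4 peaks (4.76%, 0.582% to 16.2%), compared with 8.57% and 10.9% over the whole lists.

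ITGA6, the α subunit of the hemidesmosome receptor (ENSG00000091409.16, plus strand, chr2:172427354-172506459), stood apart from the rest. None of its 6 TSS had a peak of any library within 1 kb, and the SBNO1 peak nearest to any of them was 173852 bp away. The only peak in its window, a TAF4 peak at chr2:172555537-172556120, had a score of 438 and lay at the promoter of PDK1, 67575 bp beyond the last internal TSS of ITGA6. Its RefSeq promoter with 3 GC boxes in capitals is shown for comparison, since it has the letters found at the covered promoters of the group but no peak. Whether ITGA6 was transcribed in these cells was not measured here.
ITGA6 promoter, no peak (GRCh38.p14), chr2:172427336-172427635, plus strand: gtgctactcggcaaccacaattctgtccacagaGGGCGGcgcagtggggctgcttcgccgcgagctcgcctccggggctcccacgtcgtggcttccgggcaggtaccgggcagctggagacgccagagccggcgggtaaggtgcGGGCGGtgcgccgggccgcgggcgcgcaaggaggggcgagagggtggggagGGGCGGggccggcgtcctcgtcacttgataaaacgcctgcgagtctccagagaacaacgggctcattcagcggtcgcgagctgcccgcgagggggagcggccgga

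ITGB1, the common β subunit (ENSG00000150093.20, minus strand, chr10:32887273-33005792), had 1 promoter peak of each protein, both over the cluster of its main starts. SBNO1 at chr10:32957993-32958578 had a score of 525 and TAF4 at chr10:32957938-32958567 one of 922, with 575 bp in common. Of its 19 TSS, 15 were within 1 kb of both. The promoter is rich in G and C, at 80.5% in the central 200 bp of the SBNO1 peak, and is shown with its 3 GC boxes in capitals.
ITGB1 promoter, SBNO1 and TAF4 peaks (GRCh38.p14), chr10:32958181-32958480, minus strand: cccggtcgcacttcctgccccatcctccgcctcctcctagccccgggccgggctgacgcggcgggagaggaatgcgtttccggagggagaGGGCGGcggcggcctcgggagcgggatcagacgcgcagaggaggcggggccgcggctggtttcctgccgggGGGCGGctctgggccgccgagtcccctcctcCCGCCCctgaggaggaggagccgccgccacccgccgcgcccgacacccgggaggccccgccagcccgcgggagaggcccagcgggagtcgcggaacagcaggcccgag
The other peaks of ITGB1 lay upstream of this promoter, in the part of the gene record that other transcripts extend over, and beyond it. The highest SBNO1 score there was the 1000 of chr10:33010037-33010890, shared over 551 bp with a TAF4 peak that also scored 1000. A closer pair, SBNO1 at chr10:32980497-32981094 (score 997) and TAF4 at chr10:32980513-32981019 (score 1000), shared 507 bp, all of the TAF4 peak. It holds an AP-1 consensus 133 bp from the SBNO1 centre, in capitals below.
ITGB1 upstream element (GRCh38), chr10:32980599-32980725, minus strand: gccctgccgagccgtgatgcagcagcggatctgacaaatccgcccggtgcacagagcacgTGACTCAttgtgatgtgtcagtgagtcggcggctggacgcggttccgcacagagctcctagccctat
A pair at the outer end of the gene record (SBNO1 825, TAF4 898), an SBNO1 peak without TAF4 (611) and a TAF4 peak without SBNO1 (601) completed the locus.

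ITGB4, the hemidesmosome β subunit (ENSG00000132470.14, plus strand, chr17:75721328-75757818), had no promoter peak, although 8 SBNO1 peaks lay in its window. All 8 were in the flanks. Of these, 5 were 13875 to 37271 bp upstream, within the neighbouring gene SAP30BP, and 3 were downstream at H3-3B and UNK, including 2 at their promoters. The scores of the upstream peaks were 1000, 1000, 933, 930 and 699, and TAF4 overlapped one of them, at chr17:75700302-75700787. The TAF4 peak nearest to an ITGB4 start was in intron 1 at chr17:75723205-75723618, 1708 bp from a TSS, with a score of 492 and no SBNO1. With a distance of 3 kb it made ITGB4 a TAF4 promoter gene and raised that count to 7 of 9.

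ITGB6 (ENSG00000115221.12, minus strand, chr2:160099667-160200313) likewise lacked a promoter peak, and its gene body was empty. Its SBNO1 peaks, 5 in all, lay 5270 to 23850 bp upstream of the gene, and a stretch of 10 kb with 4 of them had its like in the windows of 267 genes (1.36%). From near to far their scores were 1000, 1000, 547, 493 and 1000, so that 3 of 5 were at the cap. TAF4 had 1 peak, chr2:160205534-160205940 (score 817), which contained the SBNO1 peak nearest to the gene, chr2:160205583-160205918. The 3 SBNO1 peaks at the cap each had the AP-1 consensus in the 200 bp at their centre and the other 2 had none. In the shared peak there were 2 copies, in capitals below.
ITGB6 upstream element, SBNO1 and TAF4 peaks (GRCh38), chr2:160205594-160205846, minus strand: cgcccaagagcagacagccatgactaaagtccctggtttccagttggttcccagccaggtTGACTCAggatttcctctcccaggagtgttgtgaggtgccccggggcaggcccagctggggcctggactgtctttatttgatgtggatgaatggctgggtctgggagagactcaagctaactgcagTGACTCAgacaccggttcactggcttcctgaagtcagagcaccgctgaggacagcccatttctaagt
The copies in the other peaks lay 3 bp from the centre at chr2:160208148-160208383 and 1 and 35 bp from it at chr2:160224163-160224364.

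CD44 (ENSG00000026508.21, plus strand, chr11:35138882-35232402) had the most TAF4 peaks of the group, 9, and the pairs were nearly complete: 9 of its 10 SBNO1 peaks overlapped a TAF4 peak. At the promoter, SBNO1 at chr11:35138742-35139413 had a score of 436, among the lowest of its list (percentile 2.69), and TAF4 at chr11:35138999-35139338 one of 1000. The TAF4 peak lay wholly inside the SBNO1 peak. All 10 TSS at the start of the gene were within 1 kb of both peaks, and none of the 14 TSS inside the gene was. The promoter is shown with its 2 GC boxes in capitals.
CD44 promoter, SBNO1 and TAF4 peaks (GRCh38.p14), chr11:35138921-35139220, plus strand: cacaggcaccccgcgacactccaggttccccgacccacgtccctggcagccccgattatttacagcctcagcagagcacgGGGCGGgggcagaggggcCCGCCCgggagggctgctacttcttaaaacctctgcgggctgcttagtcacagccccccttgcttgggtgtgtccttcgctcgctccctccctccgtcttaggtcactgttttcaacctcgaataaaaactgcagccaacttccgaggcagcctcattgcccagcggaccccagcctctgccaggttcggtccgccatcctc
Intron 1 held 5 SBNO1 and 5 TAF4 peaks in pairs, 3 within 5864 bp of the last of the clustered TSS and 2 farther in. SBNO1 scores in this intron ran from 773 to 1000 and TAF4 scores from 579 to 733, all of the latter below the median of their list. In the flanks, a peak pair at chr11:35111621-35111966 (SBNO1, score 1000) and chr11:35111001-35112041 (TAF4, score 624) lay 26916 and 26841 bp upstream of the gene. Its AP-1 consensus, 22 bp from the SBNO1 centre, is in capitals.
CD44 upstream element (GRCh38), chr11:35111708-35111834, plus strand: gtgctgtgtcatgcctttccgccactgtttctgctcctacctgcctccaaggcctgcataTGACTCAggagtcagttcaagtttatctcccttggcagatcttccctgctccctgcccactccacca
The SBNO1 peak without TAF4, 3011 bp upstream, had a score of 449. Downstream, pairs lay 16703 bp (SBNO1 1000, TAF4 797) and 41264 bp (SBNO1 749, TAF4 494) from the last internal TSS, the latter within SLC1A2.

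Over all 9 loci, 35 of 56 SBNO1 peaks (62.5%, interval 48.5% to 75.1%) overlapped a TAF4 peak by at least 1 bp, and the share in the whole SBNO1 list was 59.7%. At promoters this held for 7 of 8 peaks (87.5%, 47.3% to 99.7%, against 83.8% of SBNO1 peaks near a TSS in the list), in gene bodies for 12 of 17 (70.6%, 44% to 89.7%) and in the flanks for 16 of 31 (51.6%, 33.1% to 69.8%). From the other side, 35 of 42 TAF4 peaks (83.3%, 68.6% to 93%) overlapped an SBNO1 peak, compared with 75.2% of the whole TAF4 list. Each of these intervals included the share of the whole list. Over 1 kb from any TSS, 25 of 28 TAF4 peaks (89.3%, 71.8% to 97.7%) had SBNO1 and 25 of 45 SBNO1 peaks (55.6%, 40% to 70.4%) had TAF4, against 83.2% and 49.5% in the lists.

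Scores were then read by position within each library. For TAF4, 6 of 8 promoter peaks were at the cap (75%, 34.9% to 96.8%) and the lowest had 922, while over 1 kb from any TSS 5 of 28 peaks were at the cap (17.9%, 6.06% to 36.9%) and the median was 722. In the TAF4 list the shares were 50.1% near a TSS and 36.6% away from it, both within these intervals. For SBNO1, 2 of 8 promoter peaks were at the cap (25%, 3.19% to 65.1%), those of ITGA2 and ITGA3, and 16 of 45 peaks over 1 kb from any TSS (35.6%, 21.9% to 51.2%). The shares of the SBNO1 list were 32.2% and 35.6%. For each protein the intervals of the 2 positions overlapped. Restricting the SBNO1 list to peaks at or above its median score left 2 of 9 genes with a promoter peak, ITGA2 and ITGA3, while the same filter left 5 of 9 for TAF4. The shares of all genes under this filter were not computed. Peaks near a TSS were wider than those elsewhere, with medians of 629 and 443 bp for SBNO1 and of 582 and 418 bp for TAF4, and the part of width in the scores was not tested.

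**Figure D4:**
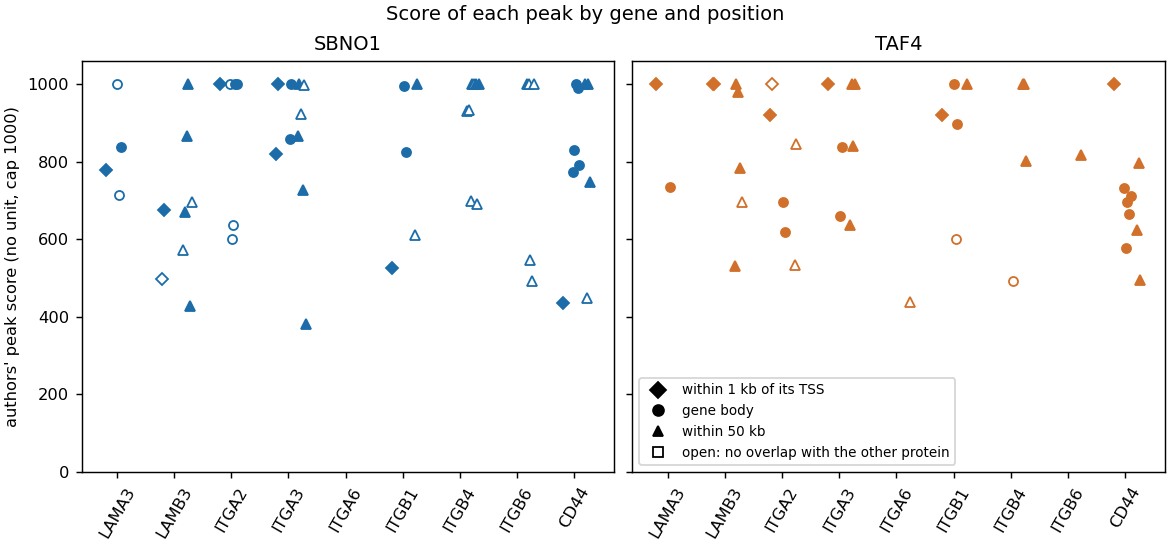
Score of every SBNO1 (left) and TAF4 (right) peak (y axis, no unit, cap at 1000) by gene, with diamonds for peaks within 1 kb of a TSS of the gene, circles for the gene body and triangles for the flanks. Open symbols are peaks without overlap with the other protein, and sideways shifts only separate points. TAF4 diamonds lie between 922 and 1000, SBNO1 diamonds between 436 and 1000.

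A part of the peaks away from promoters held the AP-1 consensus, searched as TGACTCA on both strands in the 200 bp at the centre of each peak. It was present in 19 of 45 SBNO1 peaks over 1 kb from any TSS (42.2%, 27.7% to 57.8%) and in 10 of 28 TAF4 peaks (35.7%, 18.6% to 55.9%). All 8 genes with such SBNO1 peaks had it in at least 1 of them. The same count over all genes was not made, and a gene with more such peaks has more places for a match. In the whole lists the share was 36.6% for SBNO1, 32.3% for TAF4 and 15.1% (13.3% to 17.2%) for IgG, so the 9 genes were within counting error of other SBNO1 and TAF4 peaks. In windows of 200 bp cut from the same 9 loci without any peak the share was 3.15% (272 of 8626, 2.79% to 3.54%). These were not matched for base composition. Among the 45 SBNO1 peaks the consensus was found in 11 of 25 with TAF4 and in 8 of 20 without. Over the full width of the peak it was found in 26 of 45 (57.8%), against 49.4% of such peaks in the whole SBNO1 list. The nearest copy lay a median of 46 bp from the centre, against 55 bp in the list. At promoters 2 of 8 SBNO1 peaks had it (LAMA3 and LAMB3), compared with 7.12% of SBNO1 peaks near a TSS and an interval of 3.19% to 65.1% for the 2 of 8.

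**Figure D5:**
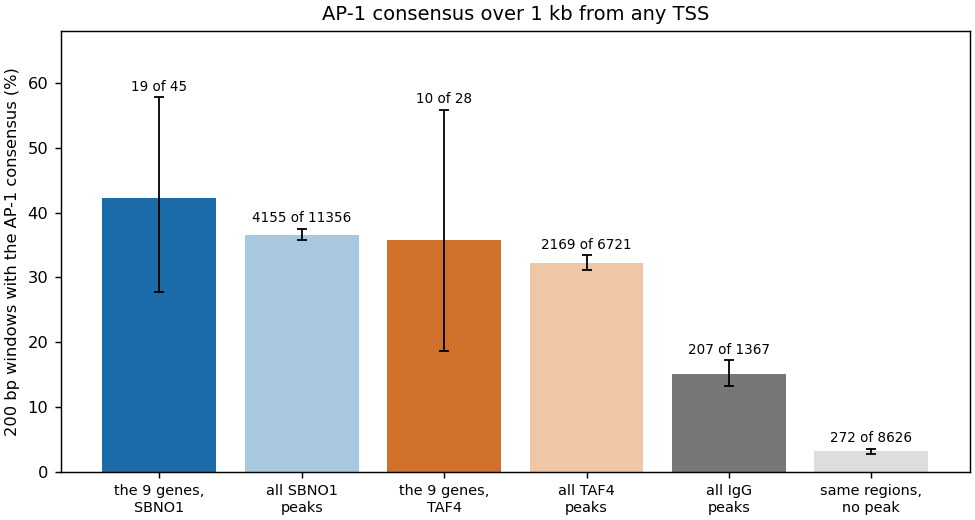
Share of 200 bp windows with the AP-1 consensus (y axis, percent) at peaks over 1 kb from any TSS, for the 9 genes and for the whole lists, and in peak-free windows of the same loci. Error bars are 95% Clopper-Pearson intervals and the numbers above are windows with the consensus of all windows. The SBNO1 peaks of the 9 genes (42.2%) and of the list (36.6%) overlap in their intervals, and the peak-free windows are at 3.15%.

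Other integrin subunits, and genes of the structures in which these proteins work, were counted in the same way. Of 20 other integrin subunits, 4 had an SBNO1 and 4 a TAF4 promoter peak. ITGB2, ITGB5 and ITGB8 had both, ITGA1 had SBNO1 (768) only, and ITGAV, the partner of ITGB6, had TAF4 (1000) only. At ITGB5 an IgG peak (score 533) overlapped the promoter region as well. The share of 20% for either protein was below the 25.7% and 31.9% of all genes.

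Among 7 other hemidesmosome and anchoring genes, PLEC, the linker to keratin, had promoter peaks of both proteins (1000 each) and COL7A1, the anchoring fibril collagen, had SBNO1 (724) only. Promoter peaks were thus found at 28.6% of the 7 genes for SBNO1 and 14.3% for TAF4, against 25.7% and 31.9% of all genes. The 7 genes had a median of 5 SBNO1 peaks per window, close to the 6 of the 9 genes. None of the 7 was without an SBNO1 peak in its window, and 62.3% of all genes had one. Of 18 focal adhesion proteins, 9 (50%) had an SBNO1 and 9 a TAF4 promoter peak, against 25.7% and 31.9% of all genes. Both were present at 7 of the 18, against 22.6% of all genes. The median of the 18 was 3 SBNO1 peaks per window, against 1 in all genes. By SBNO1 score the first 5 were VCL (vinculin, with an IgG promoter peak of 807 too), TNS3, SRC (SBNO1 only), ACTN1 and PTK2 (focal adhesion kinase). Of 9 CD44 partners and hyaluronan genes, 2 had an SBNO1 promoter peak, HMMR (793, with TAF4 984) and the hyaluronan synthase HAS2 (443, without TAF4). EZR, the ERM protein ezrin, had TAF4 (952) only. For either protein the share of this list was 22.2%, below the 25.7% and 31.9% of all genes. Its median of 1 SBNO1 peak per window was that of all genes. No difference between these lists, the 9 genes and all genes was tested.

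Finally, genes with a like arrangement of peaks were sought by the counts of SBNO1, TAF4 and IgG peaks at the promoter and elsewhere in the window, 6 values per gene on a log2(count + 1) scale. The median of the 9 genes was 1 SBNO1 and 1 TAF4 peak at the promoter, 5 SBNO1 and 4 TAF4 peaks elsewhere and no IgG peak. None of the 9 genes had exactly this profile itself. It was met exactly by 19 other protein-coding genes, the first of which by symbol were ABR, ALOXE3 and AMBRA1.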

How the data were processed

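Chromatin of HuCCT1 cells, prepared with an enzymatic kit, was precipitated with SBNO1 or TAF4 antibodies or IgG and sequenced. According to the methods of the study, biological replicates were pooled, and the single-end reads went through ktrim (trimming), bowtie2 (alignment to GRCh38.p14) and normR (peak calling). The submitters' processing notes name Bowtie2 2.5.4 and Genrich 0.6.1, so which caller made the lists is not known here. Threshold, duplicate handling and use of IgG in the calls were not given in the sources used here. The deposited lists give each peak a score, set by the authors and capped at 1000, and no read numbers, so depth is unknown.

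Peaks (coordinates 1-based) were compared with GENCODE 44 by distance from the peak edge, and each was counted for all genes it reached. Motifs were exact matches on either strand. Promoter sequences came from RefSeq (7 of 9 genes matched, ITGA3 and ITGB4 did not), other sequences from the genome. Named are all promoter peaks, the highest-scoring other peaks, the covered integrin genes and up to 5 covered genes of each other list. A list of other laminin chains is not reported here. Genes and lists were chosen with earlier results of these data known. Functions were tested on simulated peaks. Python 3.11.15, numpy 2.4.6, scipy 1.17.1 and pysam 0.24.0 were used. Alternatives were other TSS sets, distances, flanks, rules of overlap, a filter on score, removal of peaks shared with IgG and another motif.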

Additional observations from a re-analysis of the deposited data

How the results depend on the processing

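Of 48 values recomputed under alternatives, 38 stayed within 1.5 times the count or within the counting interval and 10 moved. Keeping only peaks at or above the median score of their list moved most: the genes with an SBNO1 promoter peak from 6 to 2, the SBNO1 peaks from 56 to 26, the TAF4 peaks from 42 to 14, the IgG peaks from 2 to 1 and the share of SBNO1 peaks with TAF4 from 62.5% to 26.9%. The filter by its construction removes about 50% of each list, and the cause of the larger losses was not tested. That share was 48.2% at a reciprocal overlap of 50% and 76% in gene bodies and promoters alone. IgG peaks numbered 5 with flanks of 100 kb and 1 without peaks near the TSS of other genes. The TEAD consensus in place of AP-1 gave 11.1% of SBNO1 peaks over 1 kb from any TSS. With 1 TSS per gene, and with the canonical TSS alone, a choice made after seeing the data, SBNO1 and TAF4 promoter peaks were each left at 5 genes, since LAMA3 was lost. The 1 TSS per gene was the outer end of the gene record. There ITGB1 counted through other peaks than its promoter peaks, chr10:33005370-33005989 for SBNO1 and chr10:33005272-33005644 for TAF4. The IgG promoter count was 0 under each alternative tried. For all promoter counts under alternatives, the matching shares of all genes were not computed.

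No paired analysis was possible because there was only 1 library for each antibody. Peak lists hold only what passed the authors' threshold, so a missing peak, as at ITGA6, shows that no peak was called and not that the protein was absent. Neither transcription nor the contact of distant peaks with these promoters was measured. In the flanks, 3 SBNO1 and 6 TAF4 peaks lay within 1 kb of a TSS of a neighbouring gene alone. The depth of the IgG list, which sets how much background it can show, was unknown.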

Other observations

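Other consensus sequences were counted in the same windows of 200 bp. The core TEAD consensus (GGAATG or CATTCC) was present in 5 of the 45 SBNO1 peaks over 1 kb from any TSS (11.1%, 95% Clopper-Pearson interval 3.71% to 24.1%), in 23.6% of such peaks of the whole SBNO1 list and in 11.2% of the peak-free windows of the 9 loci. ITGA3 accounted for 3 of these 5 peaks. In the IgG list, 33.8% of such peaks (31.3% to 36.4%) had the TEAD consensus, more than in the SBNO1 list. TAF4 had it in 3 of 28 such peaks (10.7%, 2.27% to 28.2%), against 24.1% of the TAF4 list. The CCAAT box (CCAAT or ATTGG) was found in 2 of 45 (4.44%, 0.543% to 15.1%), compared with 23% of the list and 26.8% of the peak-free windows. For TAF4 it was found in 5 of 28 such peaks (17.9%, 6.06% to 36.9%), against 24.3% of the TAF4 list. The ETS consensus (CCGGAA or TTCCGG) was found in 2 of 45 SBNO1 peaks (4.44%), close to the 4.56% of the list. For TAF4 it was found in 4 of 28 (14.3%, 4.03% to 32.7%), against 5.52% of the TAF4 list. At promoters, the GC box was present in 4 of 8 SBNO1 peaks (50%, 15.7% to 84.3%) and in 3 of 8 TAF4 peaks (37.5%, 8.52% to 75.5%), compared with 53.4% and 59.6% of peaks near a TSS. The exact TATA letters (TATAAA or TTTATA) were not found in the central 200 bp of the promoter peaks of either protein. This was 0 of 8 for each (interval up to 36.9%), against 4.22% and 3.69% of the lists. Variants of these letters were not searched, and the windows do not all cover a TSS, so TATA elements may have been missed.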
